A study of Homo sapiens with 6 samples.

Results

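The Hedgehog pathway was examined through 9 genes of its core, which are GLI1, GLI2, GLI3, PTCH1, SMO, SUFU, HHIP, IHH and KIF7. The genes were taken by symbol from the deposited expression table, where each of the 9 had 1 row among 60605 genes. GLI3 was known from these data to differ strongly between the groups when the set was drawn up, so its own change is described here without a test, and the question put to the data is what the other 8 genes did. Poly(A) RNA was sequenced from 3 libraries of SW620 cells transduced with a lentivirus that carries ELAPOR1 and from 3 libraries of SW620 cells transduced with the empty pLVX-IRES-Puro vector. SW620 is an established human colorectal cancer line. Both kinds of cell received virus at a multiplicity of 20, were selected in 2 ug/ml puromycin and were kept in 10% serum, so the vector cells share the viral backbone, the selection and the packaging in HEK293T cells. The labels give no number of clones, transductions or cultures, so the spread between libraries may be technical. The ELAPOR1 libraries held 16457436, 19268166 and 17984626 counts and the vector libraries held 19410332, 20571924 and 16401813 counts.

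Hedgehog ligands (SHH, IHH and DHH) are secreted lipid-modified proteins that bind the receptor PTCH1 and so release the membrane protein SMO from inhibition. Signal from SMO is passed on in the primary cilium, where KIF7 and SUFU hold the GLI zinc finger factors in check. GLI3 is mostly cut down to a repressor in the absence of ligand, whereas GLI1 is an activator and itself a target. PTCH1, GLI1 and HHIP are the usual readouts of pathway activity. In the gut, the epithelium secretes IHH and SHH, and the cells that answer lie mainly in the underlying mesenchyme.

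GLI3 was the member that stood apart. Its transcript was 5.59-fold more abundant in ELAPOR1 cells, and the 3 ELAPOR1 libraries all lay above the 3 vector libraries. Among the other 5 members with enough reads to test, 0 passed edgeR's test, against 21.4% of all 16003 tested genes. An unadjusted p under 0.05 was found for 1 of the 5, PTCH1, and for 5091 of all 16003. DESeq2 called 0 of these 5 members as well, as did the authors' deposited table, in which 19.1% of 17065 genes have an adjusted p under 0.05. PTCH1 was slightly lower on average, SMO was lower on average with a wide spread, SUFU was level, and IHH and KIF7 were higher on average with groups that overlapped. GLI1, GLI2 and HHIP were at the limit of detection in both groups. "Tested" means that a gene passed edgeR's filter on low counts, and "called" means an edgeR quasi-likelihood test with a Benjamini-Hochberg adjusted p under 0.05 over all 16003 genes.

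A GLI-binding sequence is known from the PTCH1 promoter, and the window that holds it is shown because PTCH1 is the member through which GLI activity is usually read. The motif GACCACCCA was searched on both strands of RefSeq promoter windows, which run from 250 bases before to 50 bases after a transcript start in GRCh38.p14. Windows were available for 7 of the 9 members, with 12 windows in all, and 1 of the 12 held the motif without a mismatch. Of all 35116 windows, 83 (0.236%) held it. The PTCH1 window lies at chr9:95509217-95509516 on the minus strand, the capitals mark the motif, which reads as its reverse complement here, and the first capital is at position -172 from the start.
PTCH1 promoter window: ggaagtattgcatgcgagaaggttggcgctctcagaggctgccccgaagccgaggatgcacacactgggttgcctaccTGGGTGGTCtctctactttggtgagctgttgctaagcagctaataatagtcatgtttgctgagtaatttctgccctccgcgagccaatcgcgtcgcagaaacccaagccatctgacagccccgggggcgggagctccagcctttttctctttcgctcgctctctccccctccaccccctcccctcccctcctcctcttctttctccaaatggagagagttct
With 1 mismatch allowed, 3 of the 12 windows matched, all of them PTCH1 windows, against 6.74% of all windows. A pair of these windows overlaps and shares a site, so the 3 matches are 2 sites. Among 26 further textbook GLI target genes, 13 had windows, and 0 of their 28 windows held the exact motif, while 3 held it with 1 mismatch allowed, those of FST and RAB34. A match describes the letters and is not evidence of binding in these cells.

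The labels were checked on ELAPOR1 itself, an endosome and lysosome associated membrane protein. ELAPOR1 stood at 21494, 21112 and 20772 CPM in the ELAPOR1 libraries and at 11.5, 11.0 and 8.73 CPM in the vector libraries, where CPM is the count scaled by library total and TMM factor. The epithelial markers EPCAM and KRT8 were abundant in both groups. EPCAM averaged 435 CPM in ELAPOR1 cells and 441 CPM in vector cells, and KRT8 averaged 3782 CPM in ELAPOR1 cells and 4163 CPM in vector cells. Some other markers of the colon were low. CDX1, a colon transcription factor, had at most 2 counts in a library. LGALS4 averaged 0.898 CPM in ELAPOR1 cells and 0.415 CPM in vector cells. KRT20 averaged 0.677 CPM in ELAPOR1 cells and 2.20 CPM in vector cells. Of the 10 epithelial markers tested, 6 were called, 5 lower and 1 higher in ELAPOR1 cells. That is 60.0% called, against 21.4% of all tested genes, with 10.0% of all called higher and 11.4% lower. The lower ones were CDH1, KRT8, KRT19, KRT20 and CDX2, with log2 fold changes of -0.76, -0.14, -0.45, -1.67 and -0.56, and the higher one was CDH17, at 20.2 CPM in ELAPOR1 cells and 9.75 CPM in vector cells. The epithelial sum was 7854 to 7868 CPM in ELAPOR1 libraries and 8438 to 8833 CPM in vector libraries. Of 11 fibroblast and smooth muscle markers, FOXF1 had no count in any library and COL1A2, COL3A1, DCN, PDGFRA and THY1 had at most 2 counts in a library. Their summed level was 26.1 to 31.7 CPM in ELAPOR1 libraries and 18.3 to 19.6 CPM in vector libraries. Of the 5 tested, 2 were called higher in ELAPOR1 cells, LUM and ACTA2. That is 40.0%, against 10.0% of all tested genes called higher and 21.4% called in either direction. LUM, a matrix proteoglycan, made up most of that sum, at 23.4 CPM in ELAPOR1 cells and 14.9 CPM in vector cells, while COL1A1 averaged 2.45 CPM in ELAPOR1 cells and 2.56 CPM in vector cells. The part of these marker differences in the GLI3 values was not tested.

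**Figure D1:**
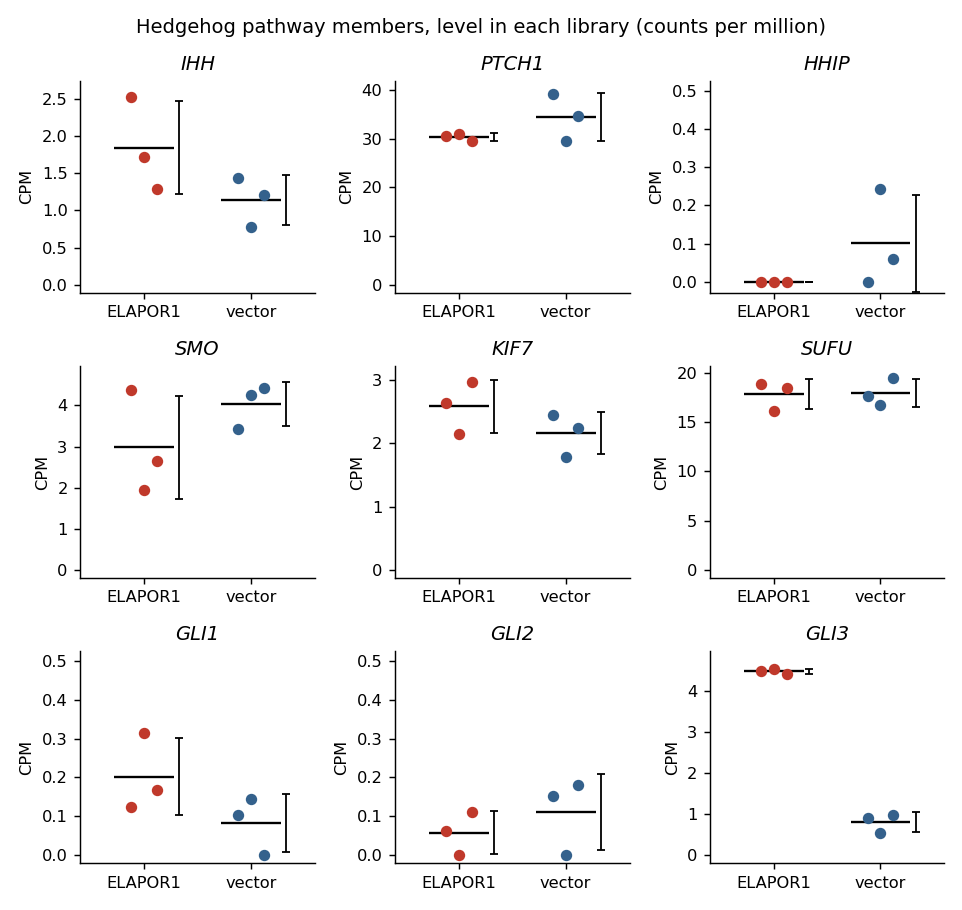
Level of each of the 9 members in every library, in CPM on a linear axis that differs between panels, with points for libraries, ELAPOR1 left of vector, and lines with bars for the mean and SD (n = 3 each). GLI3 is the panel in which the points of the groups are far apart, at 4.43 to 4.54 CPM in ELAPOR1 libraries and 0.533 to 0.970 CPM in vector libraries.

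IHH, the Indian hedgehog ligand, lies on chromosome 2 from 219054424 to 219060921 (minus strand, GRCh38 as in the deposited table, which is the source of all gene coordinates below). It had 41, 33 and 23 counts in the ELAPOR1 libraries and 28, 16 and 20 counts in the vector libraries. Scaled, these are 2.52, 1.72 and 1.29 CPM with ELAPOR1 and 1.43, 0.775 and 1.21 CPM with vector. The highest vector library lay above the lowest ELAPOR1 library, so the groups overlapped. The log2 fold change was 0.69 (SE 0.38, 95% interval -0.06 to 1.45, edgeR adjusted p = 0.203).

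PTCH1, the receptor, lies on chromosome 9 from 95442980 to 95517057 (minus strand). Its levels were 30.6, 31.0 and 29.5 CPM in ELAPOR1 libraries and 39.3, 29.5 and 34.6 CPM in vector libraries. The ELAPOR1 libraries lay close together, and vector replicate 2 sat among them while the other vector libraries were above. The log2 fold change was -0.18 (SE 0.08, 95% interval -0.34 to -0.02), with an unadjusted p of 0.0273 and an edgeR adjusted p of 0.102. Without vector replicate 2 the log2 fold change was -0.29 and the edgeR adjusted p was 0.0102, so this call turned on 1 library. PTCH1 is overlapped by 3 unnamed genes on the other strand with 176, 143 and 41 counts over all libraries, against 3567 counts for PTCH1.

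HHIP, a decoy that binds the ligands at the cell surface and is induced by the pathway, lies on chromosome 4 from 144646156 to 144745271 (plus strand). It had 0, 0 and 0 counts in ELAPOR1 libraries and 0, 5 and 1 counts in vector libraries, too few to test. An unnamed protein-coding gene with 56 counts and HHIP-AS1 with 3 overlap HHIP on the other strand, against 6 counts for HHIP. The few counts of HHIP are therefore uncertain. A library with 0 counts allows a level of up to 3 counts. Scaled by library total alone, without the TMM factor, that is 0.156 to 0.182 CPM in the ELAPOR1 libraries. This floor covers counting error only, whereas the intervals of fold changes include the spread between libraries.

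SMO, the membrane protein that carries the signal inward, lies on chromosome 7 from 129188633 to 129213545 (plus strand). It had 4.37, 1.93 and 2.64 CPM in the ELAPOR1 libraries and 3.42, 4.26 and 4.43 CPM in the vector libraries. ELAPOR1 replicate 1 lay within the range of the vector libraries and the other ELAPOR1 libraries lay below it. The log2 fold change was -0.45 (SE 0.24, 95% interval -0.93 to 0.03, edgeR adjusted p = 0.191). Without ELAPOR1 replicate 1 it was -0.82 with an edgeR adjusted p of 0.0231, so this call also turned on 1 library.

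KIF7, a kinesin-like protein that organises the ciliary tip and regulates GLI processing, lies on chromosome 15 from 89608789 to 89655467 (minus strand). It had 2.64, 2.14 and 2.97 CPM in ELAPOR1 libraries and 2.45, 1.79 and 2.24 CPM in vector libraries, with overlapping groups. Its log2 fold change was 0.26 (SE 0.28, 95% interval -0.30 to 0.82, edgeR adjusted p = 0.592). The KIF7 values are uncertain, because TICRR overlaps KIF7 on the other strand with 3655 counts, against 259 counts for KIF7, and the strand setting of the counting was not given in the sources used.

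SUFU, the cytoplasmic binder and inhibitor of GLI proteins, lies on chromosome 10 from 102503972 to 102633535 (plus strand). It had 18.9, 16.1 and 18.5 CPM in ELAPOR1 libraries and 17.7, 16.7 and 19.5 CPM in vector libraries. The ranges were nearly the same. The log2 fold change was -0.01 (SE 0.10, 95% interval -0.21 to 0.19, edgeR adjusted p = 0.969).

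GLI3 lies on chromosome 7 from 41960949 to 42264100 (minus strand). It had 73, 87 and 79 counts in ELAPOR1 libraries and 18, 11 and 16 counts in vector libraries. In CPM these are 4.49, 4.54 and 4.43 with ELAPOR1 and 0.920, 0.533 and 0.970 with vector. The ELAPOR1 libraries lay close together, and the lowest of them was far above the highest vector library. The mean was 4.49 ± 0.06 CPM in ELAPOR1 cells and 0.807 ± 0.239 CPM in vector cells (SD, n = 3 each). On the log2 scale the difference was 2.48 (SE 0.30, 95% interval 1.89 to 3.08). A change at least this large in either direction was found in 34 genes, 0.212% of those tested, which is given as description because GLI3 was picked for it. The authors' deposited table gives a log2 fold change of 2.49 for GLI3.

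GLI1 lies on chromosome 12 from 57459785 to 57472268 (plus strand) and GLI2 on chromosome 2 from 120735623 to 120992653 (plus strand). GLI1 had 2, 6 and 3 counts in ELAPOR1 libraries and 2, 3 and 0 counts in vector libraries. GLI2, the main activator among the GLI factors, had 1, 0 and 2 counts in ELAPOR1 libraries and 3, 0 and 3 counts in vector libraries. Neither reached the filter for testing, and a difference between groups was not detectable at this depth. GLI1 is overlapped on the other strand by ARHGAP9 with 73 counts and by an unnamed gene with 141 counts, against 16 for GLI1, so its few counts are uncertain.

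The make-up of the GLI family can be read from the same libraries. Per length, GLI3 made up 90.3%, 82.7% and 86.2% of the summed GLI1, GLI2 and GLI3 signal in ELAPOR1 libraries and 61.2%, 54.8% and 74.9% in vector libraries. Since GLI1 and GLI2 together gave 3, 6 and 5 counts in ELAPOR1 libraries and 5, 3 and 3 counts in vector libraries, the share follows the GLI3 counts. GLI3 was also compared in sequence with the other GLI factors and with the transgene. Of 11085 words of 50 bases in its GENCODE 29 transcripts, 0 occurred in GLI1, GLI2 or ELAPOR1 transcripts on either strand. With words of 25 bases, 3 of 11010 were shared with GLI2 and 0 with GLI1 or ELAPOR1.

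Set against each other per length, in deposited FPKM (counts scaled by exonic length and library total), the members ranked as follows in ELAPOR1 cells. SUFU stood at 2.57 ± 0.21, PTCH1 at 1.75 ± 0.05, IHH at 0.74 ± 0.25, SMO at 0.62 ± 0.26, KIF7 at 0.483 ± 0.080, GLI3 at 0.323 ± 0.006 and GLI1 at 0.0467 ± 0.0208 FPKM (SD, n = 3). In vector cells SUFU stood at 2.63, PTCH1 at 2.01, SMO at 0.857, IHH at 0.46, KIF7 at 0.413, GLI3 at 0.06 and GLI1 at 0.0167 FPKM. IHH, SMO and KIF7 overlapped in ELAPOR1 libraries and IHH and KIF7 overlapped in vector libraries, so their order is not resolved. GLI3 kept its place between KIF7 and GLI1 in both groups, so at its higher level it was still among the least abundant measurable members.

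**Figure D2:**
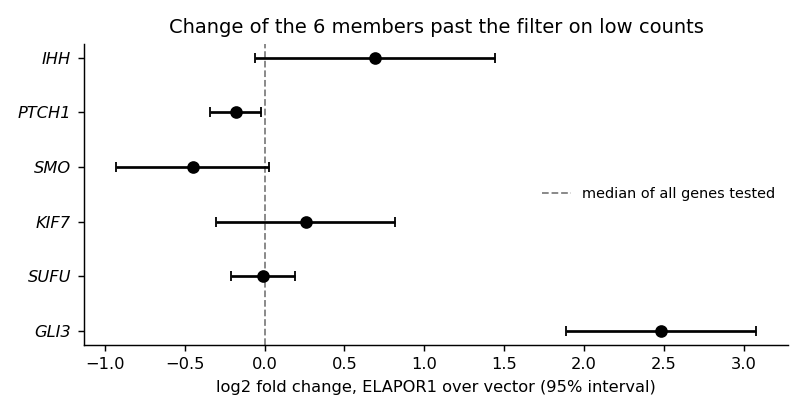
Log2 fold change of ELAPOR1 over vector from edgeR for the 6 members with enough counts, as points with 95% intervals. GLI3 lies at 2.48, and the other 5 lie between -0.45 and 0.69.

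Genes around the core were then grouped by role. These lists hold 109 genes outside the 9 members, of which 82 were tested and 24 were called, 15 higher and 9 lower in ELAPOR1 cells. That is 29.3% called, against 21.4% of all tested genes, with 10.0% higher and 11.4% lower among all genes. The median log2 fold change was 0.02 over the 82 genes and 0.00407 over all tested genes. Of the 24 calls, 14 held when each library was left out in turn.

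Among 8 genes of ligand production and release, 4 were tested and 1 was called. DISP2, a relative of the ligand-releasing protein DISP1, stood at 8.0, 7.0 and 6.73 CPM in ELAPOR1 libraries and 3.98, 3.58 and 3.21 CPM in vector libraries, without overlap. Its log2 fold change was 1.00 (SE 0.18, edgeR adjusted p = 1.17e-05). The DISP2 call was lost in the 3 limma fits on log2 FPKM, with adjusted p between 0.0923 and 0.164. SHH, the Sonic hedgehog ligand, is named after its values were seen. It had 2.21, 3.92 and 2.24 CPM in ELAPOR1 libraries and 1.79, 1.55 and 1.58 CPM in vector libraries, also without overlap, where 33.8% of all tested genes had groups that did not overlap. Its log2 fold change was 0.77 (SE 0.30, edgeR adjusted p = 0.0527), just outside the threshold. SHH was called in 3 of 14 alternative fits. These were edgeR without ELAPOR1 replicate 1 (adjusted p = 0.0399), without ELAPOR1 replicate 3 (0.0442) and with at least 10 counts in every library of a group (0.0470). All of them keep ELAPOR1 replicate 2, the highest library. Over the 14 fits, by edgeR, DESeq2 or limma, the log2 fold change ran from 0.21 to 0.91 and the adjusted p reached 0.452.

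Among 6 further receptors and co-receptors, 2 were tested and 0 were called by edgeR, with 0 at an unadjusted p under 0.05. Of all tested genes, 21.4% were called. CDON, a co-receptor for the ligands, averaged 8.02 ± 1.17 CPM in ELAPOR1 cells and 9.33 ± 0.90 CPM in vector cells (edgeR adjusted p = 0.308). The co-receptors BOC and GAS1 were too low to test.

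Among 12 genes that act at SMO, 10 were tested, 0 were higher and 2 were lower in ELAPOR1 cells. The share called was 20.0%, against 21.4% of all tested genes. ARRB2, a beta-arrestin, averaged 29.5 ± 2.0 CPM in ELAPOR1 cells and 35.1 ± 1.5 CPM in vector cells (log2 fold change -0.25, edgeR adjusted p = 0.0103). The ARRB2 call was lost without ELAPOR1 replicate 2 (edgeR adjusted p = 0.0971) and without vector replicate 2 (0.0651).

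Among 22 kinases, ligases and adaptors that modify GLI proteins, all were tested, 2 were higher and 3 lower in ELAPOR1 cells. The share called was 22.7%, against 21.4% of all tested genes. DYRK2, a kinase that phosphorylates GLI factors, stood at 39.7, 39.0 and 37.0 CPM in ELAPOR1 libraries and 25, 23.1 and 25 CPM in vector libraries. The groups were well apart (log2 fold change 0.66, SE 0.08, edgeR adjusted p = 1.09e-10). NUMB, an adaptor that takes GLI1 to the ligase ITCH, was higher by 0.19 on the log2 scale (edgeR adjusted p = 0.00193), while ITCH itself was lower with a log2 fold change of -0.17. PRKAR1A, the regulatory subunit of protein kinase A, averaged 263 ± 1 CPM in ELAPOR1 cells and 302 ± 3 CPM in vector cells (log2 fold change -0.20). The catalytic subunits PRKACA and PRKACB, GSK3B and the ligase adaptor BTRC, which act in the cutting of GLI3, were not called, with log2 fold changes of -0.08, -0.09, -0.04 and -0.08. The remaining lower call was the casein kinase CSNK1D (log2 fold change -0.10, edgeR adjusted p = 0.0361). That call was lost without any 1 of 4 libraries. The casein kinases CSNK1A1, CSNK1E and CSNK1G1 were not called.

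Among 27 genes of the primary cilium and its transport, 26 were tested, 8 were higher and 0 lower in ELAPOR1 cells. That is 30.8% called, against 21.4% of all tested genes, with 10.0% of all called higher. The median log2 fold change was 0.15, and 20 of the 26 values were positive, as were 8159 of all 16003. TCTN2, a transition zone protein, averaged 9.43 ± 0.62 CPM in ELAPOR1 cells and 6.44 ± 0.89 CPM in vector cells (log2 fold change 0.56, edgeR adjusted p = 0.00288). TCTN1, its relative, averaged 22.9 ± 1.8 CPM in ELAPOR1 cells and 17.7 ± 0.1 CPM in vector cells (log2 fold change 0.38, edgeR adjusted p = 0.00143). IFT80, a subunit of the intraflagellar transport machinery, had a log2 fold change of 0.38 (edgeR adjusted p = 6.49e-04), and SMC4 overlaps it on the other strand with 24965 counts against 2732 for IFT80. The remaining calls, OFD1, IFT81, IFT172, TMEM67 and RPGRIP1L, were each lost without at least 1 library, so 3 of the 8 held in edgeR without any single library. DESeq2 called 4, and limma called 0 of the list on log2(FPKM + 1) and 1, IFT80, on log2(FPKM + 0.1). The count was 5 without ELAPOR1 replicate 1, ELAPOR1 replicate 3 or vector replicate 3, was 4 higher and 1 lower without vector replicate 2, and was 7 higher and 1 lower when counts were scaled by library size alone.

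Among 26 textbook GLI target genes outside the members, 17 were tested, with 4 higher and 4 lower in ELAPOR1 cells. That is 47.1% called, against 21.4% of all tested genes. PAX6, a neural and eye transcription factor, stood at 10.4, 9.50 and 9.99 CPM in ELAPOR1 libraries and 3.27, 5.42 and 5.58 CPM in vector libraries, without overlap (log2 fold change 1.07, SE 0.16, edgeR adjusted p = 2.26e-07). ELP4 overlaps PAX6 on the other strand with 3694 counts against 797, and ELP4 itself had a log2 fold change of -0.08. IGFBP6, a binder of insulin-like growth factors, averaged 42.7 ± 0.7 CPM in ELAPOR1 cells and 27.7 ± 1.6 CPM in vector cells (log2 fold change 0.62). JAG2, a Notch ligand, had a log2 fold change of 0.34, and the kinase CDK6 one of 0.15. SOX9, FOXA2 and BMI1, regulators of progenitor cells, and the steroid enzyme HSD11B2 were lower, with log2 fold changes of -0.12, -0.22, -0.16 and -0.27. CCND1, BMP4, FOXL1, SNAI1, FOXM1 and BCL2 were not called, with log2 fold changes between -0.20 and 0.05. The called targets were split evenly between the directions in edgeR, while DESeq2 called 4 higher and 2 lower and an adjusted p under 0.01 left 4 higher and 1 lower. The limma fits leaned the other way. They called 2 higher and 3 lower on log2(FPKM + 1) and on log2(FPKM + 0.1), and 1 higher and 2 lower on log2(FPKM + 1) without a filter. The BMI1 call was lost with DESeq2 and without each of the 6 libraries in turn. The median log2 fold change of the 17 was -0.07. The 4 higher calls held in edgeR without any single library, while 2 of the lower calls were left without ELAPOR1 replicate 2, ELAPOR1 replicate 3, vector replicate 1 or vector replicate 2. Of the higher calls, CDK6 was lost in every limma fit, and PAX6 and JAG2 were lost in the unfiltered one. Of the lower calls, SOX9 was lost in every limma fit, and HSD11B2 was lost in the unfiltered one. Of 9 zinc finger relatives of the GLI factors, 2 were tested and 0 called by edgeR, against 21.4% of all tested genes. None of these relatives had an unadjusted p under 0.05. The relative with the smallest p was GLIS2 (log2 fold change -0.55, edgeR adjusted p = 0.283). PAM16 overlaps GLIS2 on the other strand with 1716 counts against 185, so the GLIS2 values are uncertain.

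**Figure D3:**
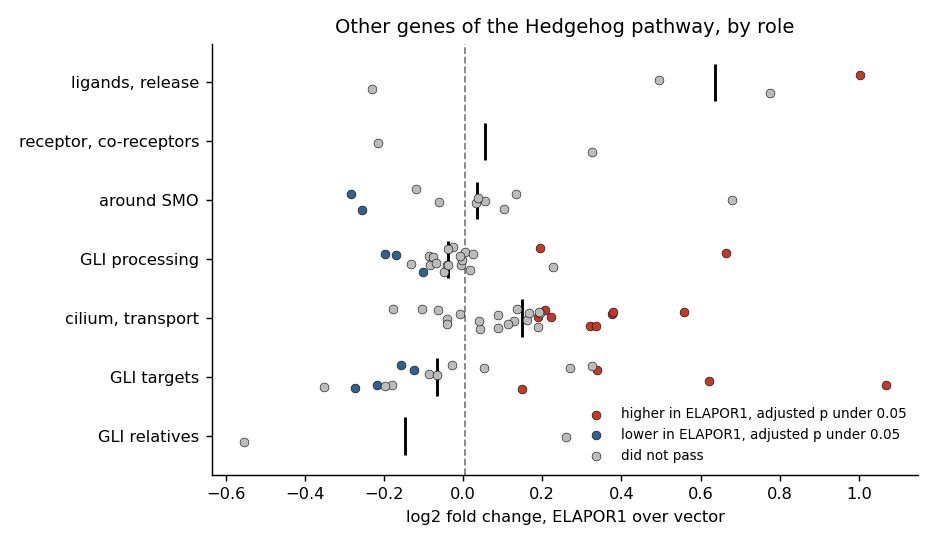
Log2 fold change of ELAPOR1 over vector for every tested gene of the 7 role lists, 1 row for each list, with filled colours for genes called higher or lower, grey for those not called and a tick at each list's median. The cilium row has 8 called genes on the higher side and 0 on the lower side, and the target row has 4 on each side. Of all tested genes, 10.0% were called higher and 11.4% lower.

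The deposited annotation places 73 genes in the KEGG Hedgehog pathway. Leaving GLI3 aside, 42 of them were tested and 5 were called, 3 higher and 2 lower in ELAPOR1 cells, which is 11.9% against 21.4% of all tested genes. Outside the genes already described, GRK3, a receptor kinase, stood at 4.18, 3.76 and 2.92 CPM in ELAPOR1 libraries and 0.920, 1.06 and 1.21 CPM in vector libraries, without overlap (log2 fold change 1.76, SE 0.30, edgeR adjusted p = 3.37e-06). RNF157, a ubiquitin ligase, had a log2 fold change of 0.39 and SUB1, a transcription coactivator, one of -0.25. The annotation is broad, and includes pseudogenes and TICRR.

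The surroundings of GLI3 on chromosome 7 were examined. The nearest tested genes were MPLKIP, which lies 1826 kb away on the side of lower coordinates, and C7orf25, which lies 645 kb away on the side of higher coordinates. Log2 fold changes were -0.13 for MPLKIP, -0.09 for CDK13 and -0.03 for ENSG00000259826 on the lower side, and 0.14 for C7orf25, -0.04 for PSMA2 and -0.15 for MRPL32 on the higher side. Of these 6, MRPL32, a mitochondrial ribosomal protein, was called lower in ELAPOR1 cells (edgeR adjusted p = 0.0299), and that call was lost without any 1 of 4 libraries. Within 5 Mb of GLI3, 13 of 52 other tested genes were called (25%, against 21.4% of all), 4 higher and 9 lower. Their median log2 fold change was -0.04, and they ranged from -1.90 for IGFBP1, named after its value was seen, to 0.88. The change of GLI3 was larger than that of every tested gene around it, which is description only because GLI3 was picked for its large change.

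**Figure D4:**
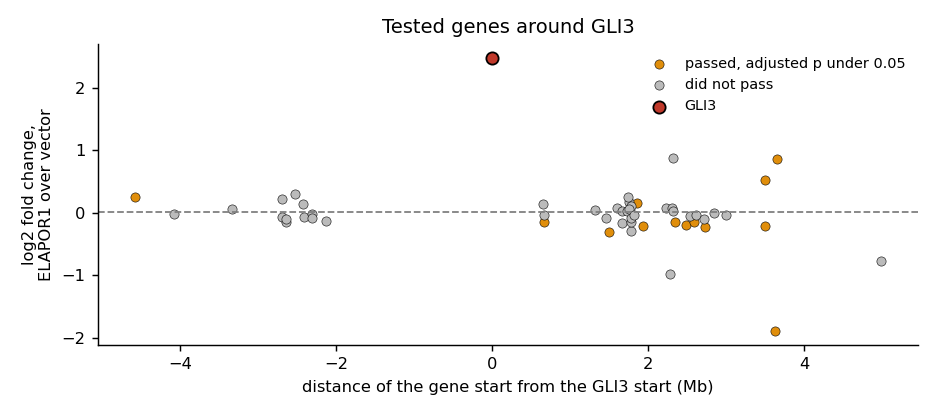
Log2 fold change of ELAPOR1 over vector for the tested genes within 5 Mb of GLI3, by distance of each gene's start from the start of GLI3 in Mb, with orange points for called genes and grey for those not called. GLI3 stands at 2.48 in the middle, and its neighbours lie between -1.90 and 0.88.

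The protein-coding genes with the profiles most like that of GLI3 over the 6 libraries were taken from 11987 candidates with a mean of at least 1 CPM, by Euclidean distance between centred log2 CPM. Among the nearest were GAB1 (distance 0.48), COL4A1 (0.59), KLRC2 (0.72) and ZNF106 (0.74). GAB1, an adaptor of receptor tyrosine kinases, averaged 2.91 ± 0.29 CPM in ELAPOR1 cells and 0.603 ± 0.165 CPM in vector cells. COL4A1, a basement membrane collagen, averaged 2.79 ± 0.22 CPM in ELAPOR1 cells and 0.492 ± 0.150 CPM in vector cells, and COL4A2 overlaps it on the other strand with 2839 counts against 177. KLRC2, a natural killer cell receptor, has near-identical copies and is uncertain. These genes share with GLI3 log2 fold changes of 1.99 to 2.49, and over 2 groups of 3 libraries the likeness is mostly that of the group difference.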

How the data were processed

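Raw counts for each gene and FPKM values were deposited by the authors in 1 table. Recomputing FPKM from count, exonic length and library total gave all 142222 nonzero cases to within 0.01. Per the submitters' processing notes the tools were cutadapt 1.9.1, HISAT2 2.0.1, HTSeq 0.6.1 and DESeq2, with the GRCh38 build. A further deposited table holds the authors' log2 fold changes and p-values. Columns were matched by name, K read as ELAPOR1 (older symbol KIAA1324) and NC as vector.

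edgeR 4.0.16 under R 4.3.3 was run on these counts (filterByExpr, TMM, quasi-likelihood test of ELAPOR1 against vector, two-sided, Benjamini-Hochberg over 16003 of 60605 genes). Each SE is the absolute log2 change divided by the root of F. Pairs of libraries in a group differed by 2.45 to 3.64 chi-square units per gene, so none was merged. Alternatives were DESeq2 1.42.0, limma 3.58.1 on log2(FPKM + 1) and log2(FPKM + 0.1), other filters and scalings, and leaving out each library. The edgeR procedure was tested on simulated data.

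The members and gene lists were chosen with earlier results of these data known. Named were all members, up to 3 called genes per list with the largest change (or that with the smallest p), the 3 nearest tested genes on each side of GLI3 and the 5 profiles nearest to it. Some genes that this rule takes are not reported here. Genes named beyond that illustrate a list or were chosen after their values were seen. Promoter windows came from RefSeq (GRCh38.p14).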

Additional observations from a re-analysis of the deposited data

How the results depend on the processing

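The number of genes called was 3427, and it was 2133 with limma on log2(FPKM + 1), 2098 on log2(FPKM + 0.1), 1378 on log2(FPKM + 1) with no filter and 2245 at an adjusted p under 0.01. DESeq2 called 2364. Leaving out each library gave 2723 to 3187. With library sizes in place of TMM the split was 1351 higher and 2183 lower, against 1607 and 1820. The pathway genes called numbered 24, against 11, 12 and 6 with the same limma fits and 15 at an adjusted p under 0.01, and 18 to 21 without each library. By direction they were 15 higher and 9 lower in edgeR, 11 and 6 with DESeq2, and 11 and 4 at an adjusted p under 0.01. In the limma fits the lower calls outnumbered the higher, with 4 higher and 7 lower, 5 and 7, and 2 and 4. The other members called numbered 0 to 1 without each library, the 1 being SMO or PTCH1. DESeq2 and limma called 0 of them. The GLI3 log2 fold change was 2.24 to 2.62 without each library. It was 0.32 with limma on log2(FPKM + 1) without a filter, a scale that compresses low values, and the filtered limma fits gave no value because GLI3 is under their 0.5 FPKM minimum. Of 37 named genes called, 13 held under every alternative that fitted them and 24 were lost under at least 1, and none reversed. Among the 13, GAB1, COL4A1 and GRK3 were fitted in 14 of 16 alternatives, because the filtered limma fits left them out. With the replicate number as a block, 3361 genes, 24 pathway genes and 0 other members were called and GLI3 had a log2 fold change of 2.49. The numbers did not pair the libraries (correlations of -0.03 to -0.02 between same-numbered libraries). Depth limits GLI1, GLI2 and HHIP most, since a library with 0 counts allows a level of up to 0.146 to 0.183 CPM, scaled by library total alone.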

Other observations

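The deposited annotation also carries Gene Ontology terms for the pathway, looked up after the values above were seen. Of 30 genes annotated as negative regulators of Smoothened signaling, 21 were tested, 0 were higher and 4 were lower in ELAPOR1 cells. That is 19.0%, against 11.4% of all tested genes called lower and 21.4% called in either direction. Among the 4 lower genes are SERPINE2, KCTD11 and KCTD6. SERPINE2, a secreted protease inhibitor, averaged 17.9 ± 0.2 CPM in ELAPOR1 cells and 32.4 ± 3.0 CPM in vector cells, with a log2 fold change of -0.86. KCTD11 and KCTD6, adaptors of a ubiquitin ligase, had log2 fold changes of -0.63 and -0.53. The KCTD6 call was lost with DESeq2, with limma without a filter, and without ELAPOR1 replicate 1 or vector replicate 2. Of 33 genes annotated as positive regulators, 23 were tested, 3 were higher and 0 were lower. That is 13.0%, against 10.0% of all tested genes called higher and 21.4% called in either direction. Among the positive regulators called, FGF9, a growth factor, averaged 6.80 ± 0.48 CPM in ELAPOR1 cells and 4.30 ± 0.98 CPM in vector cells. The FGF9 call was lost in the 3 limma fits and without vector replicate 1. The others were IFT80 and IFT172. The IFT80 call was lost with limma on log2(FPKM + 1). The IFT172 call was lost with DESeq2, with edgeR without a filter, in the limma fits and without any 1 of 4 libraries. The median log2 fold change was -0.03 over the negative regulators and 0.00415 over the positive regulators.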
